A study of Mus musculus with 12 samples.

Results

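The genes described here are 40 mouse genes of glycolysis and of the response to low oxygen, out of 23284 genes counted in each tumour. They were picked by symbol, from a list of pathway genes drawn up with earlier results of these data known, and all 40 were found in every count table. Pkm2 is an older symbol of the pyruvate kinase gene Pkm. Glycolysis splits glucose into pyruvate in the cytosol, and pyruvate is either reduced to lactate and exported or oxidised in mitochondria after entry through the pyruvate dehydrogenase complex. In low oxygen, the prolyl hydroxylases of the Egln family no longer mark the hypoxia-inducible factor subunits Hif1a and Epas1 for destruction by the Vhl ubiquitin ligase, and the stabilised factors bind hypoxia response elements and activate glucose transporters, glycolytic enzymes and pyruvate dehydrogenase kinases. CREBBP, the acetyltransferase whose gene is named in the genotype of one group here, and its relative EP300 are coactivators of these factors.

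Messenger RNA was sequenced from 12 primary neuroendocrine carcinomas of the thyroid of genetically engineered mice, in order to find genes that depend on Crebbp. Of these, 5 carry the label Rb1/Trp53/Crebbp (RPC-labelled) and 7 the label Rb1/Trp53 (RP-labelled). Both genotypes name Rb1 and Trp53, so no tumour here served as a control for those alleles. The sources used here do not give the driver of recombination, the strain, the age or the sex of the mice. They do not say either if each tumour came from its own mouse, and the p-values therefore reflect the spread among the tumours sampled.

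Gene counts per tumour ranged from 9.14 M to 20.5 M in RPC-labelled tumours and from 9.11 M to 57.3 M in RP-labelled tumours. Values are counts scaled to a library of 1 M (CPM) on libraries scaled by the TMM method, and 3 counts, taken as the floor, corresponded to 0.0502 to 0.312 CPM. Crebbp averaged 53.9 ± 4.19 CPM in RPC-labelled tumours (SD, n = 5) and 54.6 ± 20.0 CPM in RP-labelled tumours (SD, n = 7), with an edgeR adjusted p of 0.957. A count summed over all exons cannot reveal that some of them are missing, so this value does not check the labels, and every direction below is between the groups as labelled. Markers of thyroid C cells, the neuroendocrine cells of the thyroid, summed to 24630 to 136950 CPM in RPC-labelled tumours and 94046 to 232023 CPM in RP-labelled tumours. Other cell types were also present: markers of thyroid follicular cells summed to 394 to 5959 CPM in RPC-labelled tumours and 2038 to 9646 CPM in RP-labelled tumours, and those of adipocytes to 55.9 to 138 CPM in RPC-labelled tumours and 81.3 to 1787 CPM in RP-labelled tumours. In bulk tumour RNA, fewer cells of a type and less RNA per cell cannot be told apart.

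Most steps of glycolysis held at least 1 gene that was higher in RPC-labelled tumours. Of the 40 genes, all of which passed the filter on low counts, 14 were called higher and 3 were called lower in RPC-labelled than in RP-labelled tumours at an adjusted p under 0.05 (edgeR quasi-likelihood test, Benjamini-Hochberg over 14989 genes). The higher genes made up 35% of the 40, while 9.64% of all tested genes were called higher. The lower genes made up 7.5%, and 8.61% of all tested genes were called lower, so the number of lower genes is near the background. The median log2 fold change, RPC-labelled over RP-labelled, was 0.31 over the 40 genes and -0.02 over all tested genes, with 31 of the 40 above 0. The 14 higher genes were Pfkl, Aldoc, Tpi1, Pgk1, Pgam1, Eno1, Pkm2, Ldha, Slc16a3, Pdk1, Vhl, Car9, Bnip3l and Ndrg1, and the 3 lower genes were Ldhb, Pdk2 and Epas1.

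The groups did not overlap for 5 of the 40 genes, which is 12.5%, against 6.26% of all tested genes. In Pfkl, Pkm2, Pdk1 and Vhl every RPC-labelled tumour stood above every RP-labelled tumour, as in 3.62% of all tested genes. In Pdk2 every RPC-labelled tumour stood below, as in 2.64% of all tested genes. The 40 genes together took 0.619% to 1.09% of gene counts in RPC-labelled tumours, highest in tumour 5, and 0.512% to 0.673% in RP-labelled tumours. These are shares of library totals without TMM scaling, and on totals alone the median log2 fold change of all tested genes was 0.18. Without RPC-labelled tumour 2, 9 of the 40 genes were called higher and 1 lower, while calls over all tested genes fell to 557 higher and 517 lower. Against a 1.5-fold change none of the 40 was called, and 107 of all tested genes were called higher and 46 lower. None was called with a marker score of follicular or of dividing cells in the fit, and Tpi1 alone with a score of adipocytes, where 3, 20 and 66 of all tested genes were called. The median log2 fold change of the 40 genes was then 0.21 with the follicular score, 0.38 with the dividing cell score and 0.52 with the adipocyte score, while that of all tested genes lay between -0.0049 and 0.02. The scores themselves differed with genotype. The follicular score was -1.52 to -0.12 in RPC-labelled tumours and -0.13 to 0.82 in RP-labelled tumours. That of dividing cells was -0.28 to 1.92 in RPC-labelled tumours and -1.10 to 0.52 in RP-labelled tumours. That of adipocytes was -1.06 to -0.45 in RPC-labelled tumours and -0.67 to 1.59 in RP-labelled tumours. Such fits therefore cannot tell genotype and cell content apart, and why calls were lost in them was not tested.

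**Figure D1:**
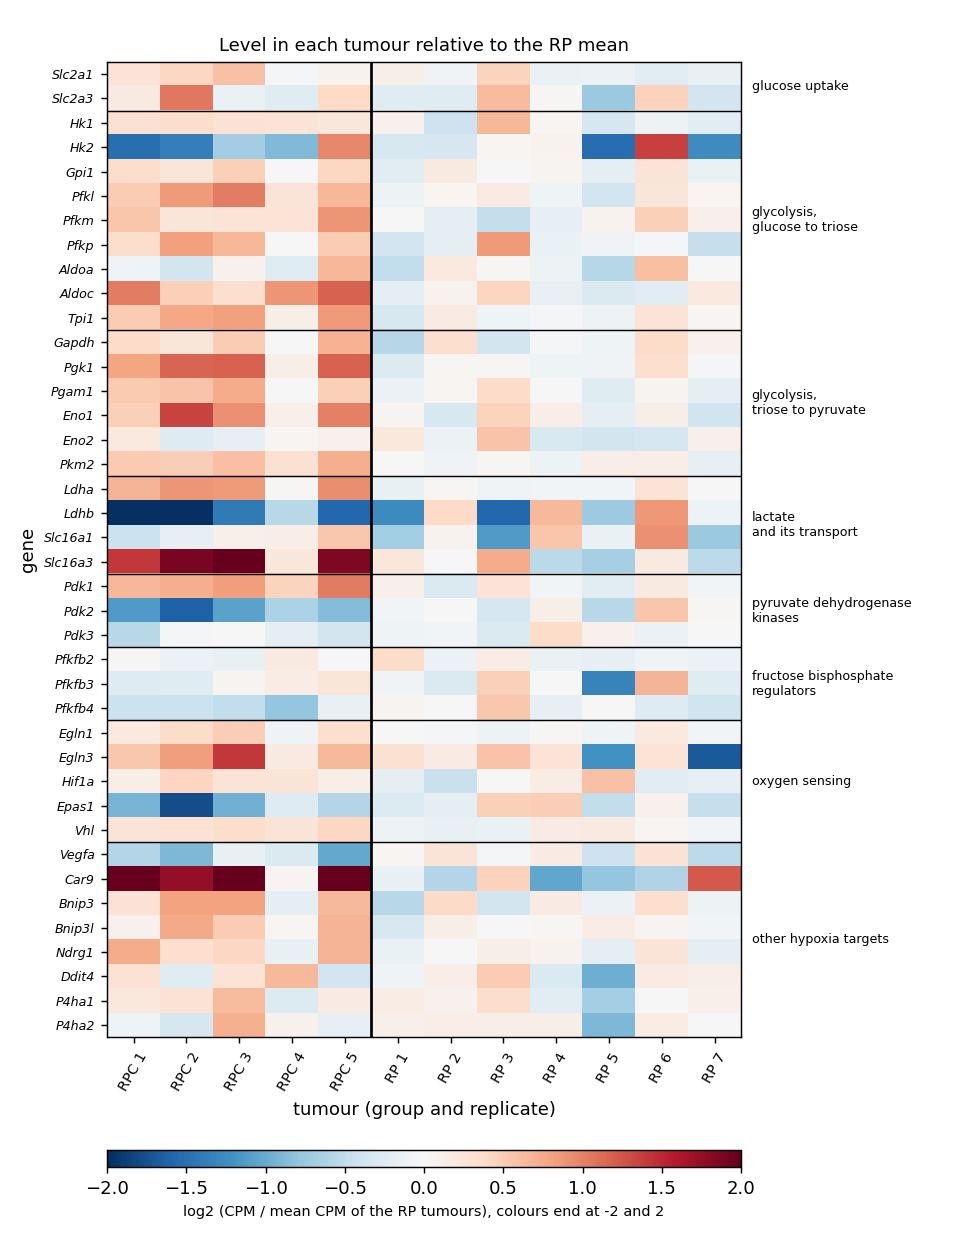
Level of each of the 40 genes (rows, by role) in each tumour (columns, 5 RPC-labelled left of 7 RP-labelled), as log2 of CPM over the mean CPM of the RP-labelled tumours; red is higher and blue lower. RPC-labelled tumours 2, 3 and 5 are red for most glycolytic genes, RPC-labelled tumour 4 is paler, and Ldhb, Pdk2 and Epas1 are blue in the RPC-labelled columns.

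RPC-labelled tumours were not alike. Tumour 5 was the highest of the 12 tumours in 11 of the 40 genes and tumour 3 in 9. Tumour 4 was the lowest RPC-labelled tumour in 12 of the 14 higher genes and lay inside the range of the RP-labelled tumours in 9 of them. Among RP-labelled tumours, tumour 5 was the lowest of all 12 in 14 of the 40 genes and tumour 1 in 7. RP-labelled tumour 6 was the highest of all 12 in 6 genes and RP-labelled tumour 3 in 4, as was RPC-labelled tumour 2. Of the 14 higher genes, RP-labelled tumour 6 lay inside the RPC-labelled range in 7 and RP-labelled tumour 3 in 6. Tumour 4 also had the lowest sum of dividing cell markers of the RPC-labelled tumours, 874 CPM, and the highest sum of follicular cell markers, 5959 CPM. The part of these markers in its position was not tested.

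**Figure D2:**
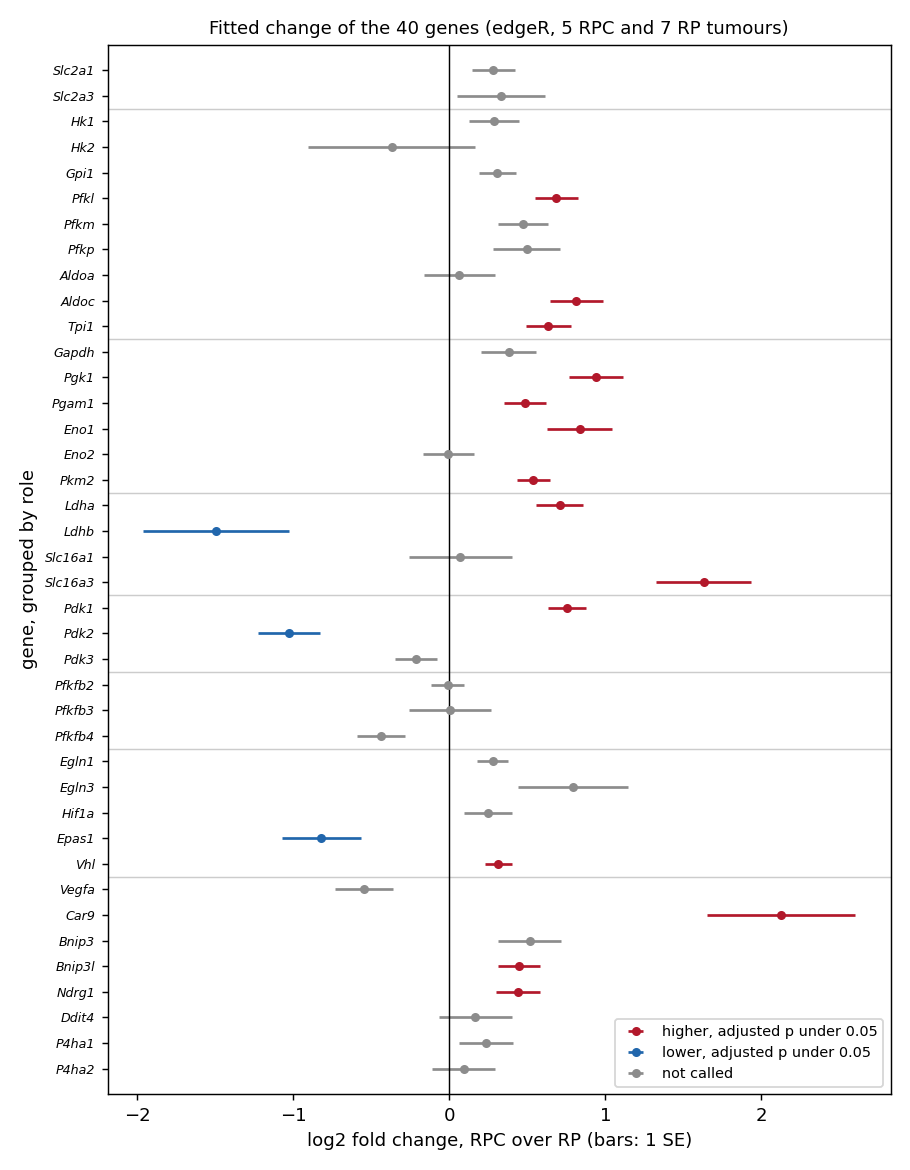
Fitted log2 fold change of each of the 40 genes, RPC-labelled over RP-labelled, with 1 standard error as bars; red points were called higher, blue lower and grey not called. The largest rise was that of Car9 at 2.13, followed by Slc16a3 at 1.63, and the largest fall that of Ldhb at -1.49.

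Promoter sequences are shown for genes that separate the groups and for genes that do not, since hypoxia-inducible factors act through a short core element. From a RefSeq table of build GRCm38.p6, windows of 300 bases, from 250 before to 50 after the first listed start, were matched for 36 of the 40 genes; Slc2a3, Epas1, Bnip3l and Ndrg1 had no entry. The 6 shown are Pgk1, Slc16a3, Pdk1 and Pdk2, the 4 called genes with the smallest p, and Eno2 and Pfkfb3, which had the smallest fold changes. Capitals mark the core of the hypoxia response element, ACGTG or GCGTG, read on either strand.
Pgk1 (higher in RPC; GRCm38.p6, chrX:106186850-106187149, + strand): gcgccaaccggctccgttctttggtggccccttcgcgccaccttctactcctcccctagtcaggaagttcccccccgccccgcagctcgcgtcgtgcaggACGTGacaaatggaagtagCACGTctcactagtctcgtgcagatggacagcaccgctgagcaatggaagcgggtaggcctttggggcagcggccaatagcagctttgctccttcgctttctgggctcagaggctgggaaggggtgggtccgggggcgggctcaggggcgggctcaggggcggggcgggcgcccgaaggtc
Slc16a3 (higher in RPC; GRCm38.p6, chr11:120948817-120949116, + strand): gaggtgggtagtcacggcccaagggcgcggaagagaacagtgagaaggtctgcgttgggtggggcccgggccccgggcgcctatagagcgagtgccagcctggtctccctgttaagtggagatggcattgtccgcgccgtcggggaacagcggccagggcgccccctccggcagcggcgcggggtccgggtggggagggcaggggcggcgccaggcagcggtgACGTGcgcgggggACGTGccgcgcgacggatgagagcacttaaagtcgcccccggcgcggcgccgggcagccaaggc
Pdk1 (higher in RPC; GRCm38.p6, chr2:71872974-71873273, + strand): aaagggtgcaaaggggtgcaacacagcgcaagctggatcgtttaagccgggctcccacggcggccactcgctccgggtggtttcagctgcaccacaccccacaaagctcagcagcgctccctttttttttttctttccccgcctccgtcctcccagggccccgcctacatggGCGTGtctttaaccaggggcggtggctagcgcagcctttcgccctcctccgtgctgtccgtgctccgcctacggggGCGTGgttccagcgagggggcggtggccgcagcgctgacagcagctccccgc
Pdk2 (lower in RPC; GRCm38.p6, chr11:95041322-95041621, - strand): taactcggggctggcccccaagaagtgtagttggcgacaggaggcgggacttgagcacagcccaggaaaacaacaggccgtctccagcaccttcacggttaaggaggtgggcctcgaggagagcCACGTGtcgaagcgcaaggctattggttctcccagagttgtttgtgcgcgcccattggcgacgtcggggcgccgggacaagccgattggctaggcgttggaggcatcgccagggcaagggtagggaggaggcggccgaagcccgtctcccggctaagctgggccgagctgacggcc
Eno2 (not called; GRCm38.p6, chr6:124769624-124769923, - strand): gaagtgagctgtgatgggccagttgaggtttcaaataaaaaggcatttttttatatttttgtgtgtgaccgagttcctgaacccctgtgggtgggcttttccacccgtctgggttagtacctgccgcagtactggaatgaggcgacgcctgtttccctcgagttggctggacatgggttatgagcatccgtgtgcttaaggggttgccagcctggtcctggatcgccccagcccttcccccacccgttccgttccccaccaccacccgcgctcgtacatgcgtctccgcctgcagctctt
Pfkfb3 (not called; GRCm38.p6, chr2:11553880-11554179, - strand): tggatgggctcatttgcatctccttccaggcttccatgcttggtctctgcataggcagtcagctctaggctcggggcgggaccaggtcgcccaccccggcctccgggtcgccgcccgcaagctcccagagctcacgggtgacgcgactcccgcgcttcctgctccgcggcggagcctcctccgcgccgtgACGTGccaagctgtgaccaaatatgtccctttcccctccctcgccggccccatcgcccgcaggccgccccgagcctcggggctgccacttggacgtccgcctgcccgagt
Pgk1, Slc16a3 and Pdk1 each held 2 cores in this window, Pfkfb3 held 1 and Eno2 held none. Pdk2, which was lower, held the palindrome CACGTG, an E-box, which counts as 1 core on each strand. The core is common in such windows: at least 1 was found in 28 of the 36 matched genes (77.8%), in 61.3% of 11760 tested genes with an entry and in 43.8% of 27025 genes of the table. The median GC content of these windows was 64.8% for the 36 genes, 60.7% for the tested genes and 52.7% for the table. Among the matched genes a core was found in 9 of 12 higher genes, in both lower genes with an entry and in 17 of 22 genes that were not called, so its presence in this window did not separate the genes that moved from those that did not. The E-box CACGTG was found in 7 of the 36 windows and in 7.24% of the table, and the cAMP response element TGACGTCA in 1, that of Ldha, and in 1.88% of the table. A match is a description of the letters and not a site of binding, and the counts themselves were made on build mm9.

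Neither glucose transporter was called. Slc2a1, the widespread basal glucose transporter, ranged from 73.7 to 113 CPM in RPC-labelled tumours and from 65.0 to 103 CPM in RP-labelled tumours (log2 fold change 0.28 ± 0.14 SE; edgeR adjusted p = 0.158). Its highest RP-labelled value was that of tumour 3, and without that tumour the log2 fold change was 0.37 with an adjusted p of 0.0366. Leaving out any other single tumour did not call Slc2a1, with edgeR adjusted p up to 0.354. Slc2a3, the high affinity transporter of neurons, was rarer, at 9.19 ± 3.63 CPM in RPC-labelled tumours (SD, n = 5) and 7.33 ± 2.51 CPM in RP-labelled tumours (SD, n = 7).

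In the steps that turn glucose into triose phosphates, 3 of 9 genes rose in RPC-labelled tumours: Pfkl, Aldoc and Tpi1. Pfkl, the liver type subunit of phosphofructokinase, which commits sugar to glycolysis, had 115, 147, 165, 97.0 and 129 CPM in RPC-labelled tumours 1 to 5, against 62.6 to 96.4 CPM with a median of 83.6 CPM in RP-labelled tumours. The groups did not overlap, and the nearest values, 97.0 CPM in RPC-labelled tumour 4 and 96.4 CPM in RP-labelled tumour 6, almost touched (log2 fold change 0.69 ± 0.14 SE; edgeR adjusted p = 0.00936). Aldoc, the aldolase isoenzyme typical of brain, had 306, 211, 189.7, 280.2 and 343 CPM in RPC-labelled tumours 1 to 5, against 123 to 203 CPM with a median of 137 CPM in RP-labelled tumours. RPC-labelled tumour 3 was the one inside the RP-labelled range (log2 fold change 0.81 ± 0.17 SE; edgeR adjusted p = 0.0104). Tpi1, which interconverts the triose phosphates, had 618, 747, 766, 472 and 784 CPM in RPC-labelled tumours 1 to 5, against 349 to 529 CPM with a median of 428 CPM in RP-labelled tumours. Tumour 4 alone of the RPC-labelled tumours fell within the RP-labelled range (log2 fold change 0.64 ± 0.15 SE; edgeR adjusted p = 0.0153).

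The other 6 genes of these steps were not called. Hk1, the widespread hexokinase, was even across RPC-labelled tumours, at 117 ± 3.98 CPM (SD, n = 5), and averaged 96.1 ± 27.1 CPM in RP-labelled tumours (SD, n = 7), where tumour 3 reached 152 CPM (edgeR adjusted p = 0.214; without that tumour, log2 fold change 0.44 and adjusted p = 0.0131). That was the only single tumour whose omission called Hk1, and edgeR adjusted p otherwise reached up to 0.383. Hk2, the inducible hexokinase of muscle and many tumours, was low, at 4.16 to 23.0 CPM in RPC-labelled tumours and 4.08 to 30.4 CPM in RP-labelled tumours. Its highest values in both groups were those of RPC-labelled tumour 5 and RP-labelled tumour 6. Per kilobase of exon, Hk1 stood at 24.2 CPM and Hk2 at 1.62 CPM in RPC-labelled tumours, and Hk1 at 19.8 CPM and Hk2 at 2.10 CPM in RP-labelled tumours, so Hk1 was the more abundant hexokinase in both groups. Gpi1, glucose phosphate isomerase, ranged from 275 to 385 CPM in RPC-labelled tumours and from 235 to 329 CPM in RP-labelled tumours (edgeR adjusted p = 0.0835; without RPC-labelled tumour 4, log2 fold change 0.38 and adjusted p = 0.0376). No other single omission called Gpi1 (edgeR adjusted p up to 0.184).

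The other phosphofructokinase subunits leaned the same way as Pfkl without passing the test. Pfkm, the muscle type subunit, had a change of 0.47 ± 0.16 SE on the log2 scale (edgeR adjusted p = 0.0558), and without RP-labelled tumour 6 it was 0.57 with an adjusted p of 0.0314. Other fits of Pfkm with 1 tumour left out did not pass (edgeR adjusted p up to 0.153). Pfkp, the platelet type subunit, had 67.8 to 120.4 CPM in RPC-labelled tumours and 49.6 to 66.3 CPM in 6 RP-labelled tumours, while RP-labelled tumour 3 stood at 123 CPM. With that tumour the log2 fold change was 0.50 ± 0.21 SE (edgeR adjusted p = 0.118), and without it 0.70 with an adjusted p of 0.00845. Omitting any other single tumour gave no call of Pfkp (edgeR adjusted p up to 0.3). Aldoa, the main aldolase of muscle and most tissues, was near equal, at 707 to 1433 CPM in RPC-labelled tumours and 611 to 1383 CPM in RP-labelled tumours (log2 fold change 0.06 ± 0.23 SE; edgeR adjusted p = 0.862). Markers of skeletal muscle summed to 4402 CPM in RPC-labelled tumour 5 and 4750 CPM in RP-labelled tumour 6, against 631 CPM or less in the other 10 tumours, and these were the tumours highest in Aldoa and Hk2. Pfkm was highest in RPC-labelled tumour 5 at 161 CPM, and RPC-labelled tumour 1, with a muscle marker sum of 116 CPM, stood above RP-labelled tumour 6, at 128 and 121 CPM. The part of muscle in these values was not tested. With RPC-labelled tumour 5 and RP-labelled tumour 6 left out, an alternative chosen after the data were seen, 7 of the 40 genes were called higher and 1 lower. Calls over all tested genes then fell to 396 higher and 360 lower.

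From triose phosphate to pyruvate, 4 of 6 genes rose: Pgk1, Pgam1, Eno1 and Pkm2. Pgk1, phosphoglycerate kinase, the first step that yields ATP, had 394, 509.7, 517, 247 and 520.0 CPM in RPC-labelled tumours 1 to 5, against 188 to 288 CPM with a median of 224 CPM in RP-labelled tumours. All but 1 of the 5 RPC-labelled tumours stood above every RP-labelled tumour, with tumour 4 inside their range (log2 fold change 0.94 ± 0.17 SE; edgeR adjusted p = 0.00711). Pkm2, pyruvate kinase, the last step, had 922, 896, 972, 794 and 1058 CPM in RPC-labelled tumours 1 to 5, against 569.8 to 701 CPM with a median of 641 CPM in RP-labelled tumours. The groups did not overlap (log2 fold change 0.54 ± 0.11 SE; edgeR adjusted p = 0.00895). The older symbol stands for the whole gene, so this is not a measure of the M2 isoform. Pgam1, phosphoglycerate mutase, had 301, 311, 349, 212 and 292 CPM in RPC-labelled tumours 1 to 5, against 177 to 270.4 CPM with a median of 209 CPM in RP-labelled tumours (log2 fold change 0.48 ± 0.13 SE; edgeR adjusted p = 0.0290). Tumour 4 was again the one RPC-labelled tumour inside the other group's range, and the call was lost without any one of RPC-labelled tumours 1, 2, 3 and 5 or RP-labelled tumours 2, 4, 5 and 7, with adjusted p up to 0.0858.

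Enolase split by isoenzyme. Eno1, the widespread enolase, had 18.3, 33.4, 24.9, 14.0 and 26.5 CPM in RPC-labelled tumours 1 to 5, against 9.95 to 17.8 CPM with a median of 13.6 CPM in RP-labelled tumours (log2 fold change 0.84 ± 0.21 SE; edgeR adjusted p = 0.0201; 0.65 with an adjusted p of 0.0673 without RPC-labelled tumour 2). Eno2, the neuron-specific enolase that serves as a neuroendocrine marker, averaged 132 ± 16.9 CPM in RPC-labelled tumours (SD, n = 5) and 133 ± 34.2 CPM in RP-labelled tumours (SD, n = 7), with an edgeR adjusted p of 0.980. Per kilobase of exon, Eno2 stood at 47.2 CPM and Eno1 at 9.20 CPM in RPC-labelled tumours, and Eno2 at 47.4 CPM and Eno1 at 5.16 CPM in RP-labelled tumours. The level of Eno1 is uncertain, since 49.5% of the 50-base stretches of its exons also occur in other annotated genes, mostly in Eno1b, which the files list as Gm5506. Gm5506 was itself higher, at 46.9 ± 28.3 CPM in RPC-labelled tumours (SD, n = 5) and 21.9 ± 4.59 CPM in RP-labelled tumours (SD, n = 7; log2 fold change 1.10 ± 0.32 SE; edgeR adjusted p = 0.0346).

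Other genes of the pathway share sequence as well, and their levels are uncertain for the same reason. The share of 50-base stretches found in other annotated genes was 68.0% for Pgk1, 59.1% for Bnip3, 58.4% for Gapdh, 41.5% for Pgam1, 25.0% for Pfkfb2, 24.5% for Gpi1, 24.4% for Bnip3l and 23.7% for Pkm2. Gapdh, glyceraldehyde phosphate dehydrogenase, which is often used as a reference gene, was not called, at 473 to 766 CPM in RPC-labelled tumours and 319 to 613 CPM in RP-labelled tumours (log2 fold change 0.38 ± 0.18 SE; edgeR adjusted p = 0.141). No such stretch was found for Pdk1, Pdk2, Slc16a3 or Aldoc, all of which were called.

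Around lactate, Ldha and Slc16a3 rose and Ldhb fell. Ldha, the lactate dehydrogenase subunit that favours making lactate, had 1049, 1199, 1172, 666 and 1239.8 CPM in RPC-labelled tumours 1 to 5, against 590.6 to 787 CPM with a median of 629 CPM in RP-labelled tumours. Tumour 4 was the one RPC-labelled tumour inside the RP-labelled range (log2 fold change 0.71 ± 0.15 SE; edgeR adjusted p = 0.0119). Slc16a3, also called MCT4, the exporter of lactate from glycolytic cells, had 56.9, 79.5, 88.4, 24.9 and 77.6 CPM in RPC-labelled tumours 1 to 5, against 13.4 to 35.7 CPM with a median of 21.2 CPM in RP-labelled tumours. The 4 other RPC-labelled tumours stood above every RP-labelled tumour, and tumour 4 lay below the highest RP-labelled tumour (log2 fold change 1.63 ± 0.31 SE; edgeR adjusted p = 0.00751). Slc16a1, or MCT1, the more widespread lactate transporter, did not pass the test, at 6.74 to 13.3 CPM in RPC-labelled tumours and 4.16 to 17.2 CPM in RP-labelled tumours. Per kilobase of exon, Slc16a3 stood at 14.7 CPM and Slc16a1 at 2.16 CPM in RPC-labelled tumours, and Slc16a3 at 4.78 CPM and Slc16a1 at 2.06 CPM in RP-labelled tumours.

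Ldhb, the lactate dehydrogenase subunit of oxidative tissues, had 12.2, 10.8, 22.2, 40.3 and 19.9 CPM in RPC-labelled tumours 1 to 5, against 19.9 to 109 CPM with a median of 55.5 CPM in RP-labelled tumours (log2 fold change -1.49 ± 0.47 SE; edgeR adjusted p = 0.0436). RP-labelled tumours 2, 4, 6 and 7, with 77.7, 93.3, 109 and 55.5 CPM, stood above every RPC-labelled tumour, while RP-labelled tumours 1, 3 and 5, with 24.5, 19.9 and 36.0 CPM, lay within the RPC-labelled range. The same 4 tumours had the highest sums of adipocyte markers, 1184, 1036, 1787 and 555 CPM, against 168 CPM or less in the other 8 tumours. Of the 10 adipocyte markers 9 fell in RPC-labelled tumours. With an adipocyte marker score in the fit the log2 fold change of Ldhb was -0.05, and with a follicular marker score it was 0.08. The call was also lost without any one of RPC-labelled tumours 1, 2, 3 and 5 or RP-labelled tumours 2, 4, 6 and 7, with adjusted p up to 0.107. Of its 50-base stretches 21.0% occur in a predicted gene, Gm5514.

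**Figure D3:**
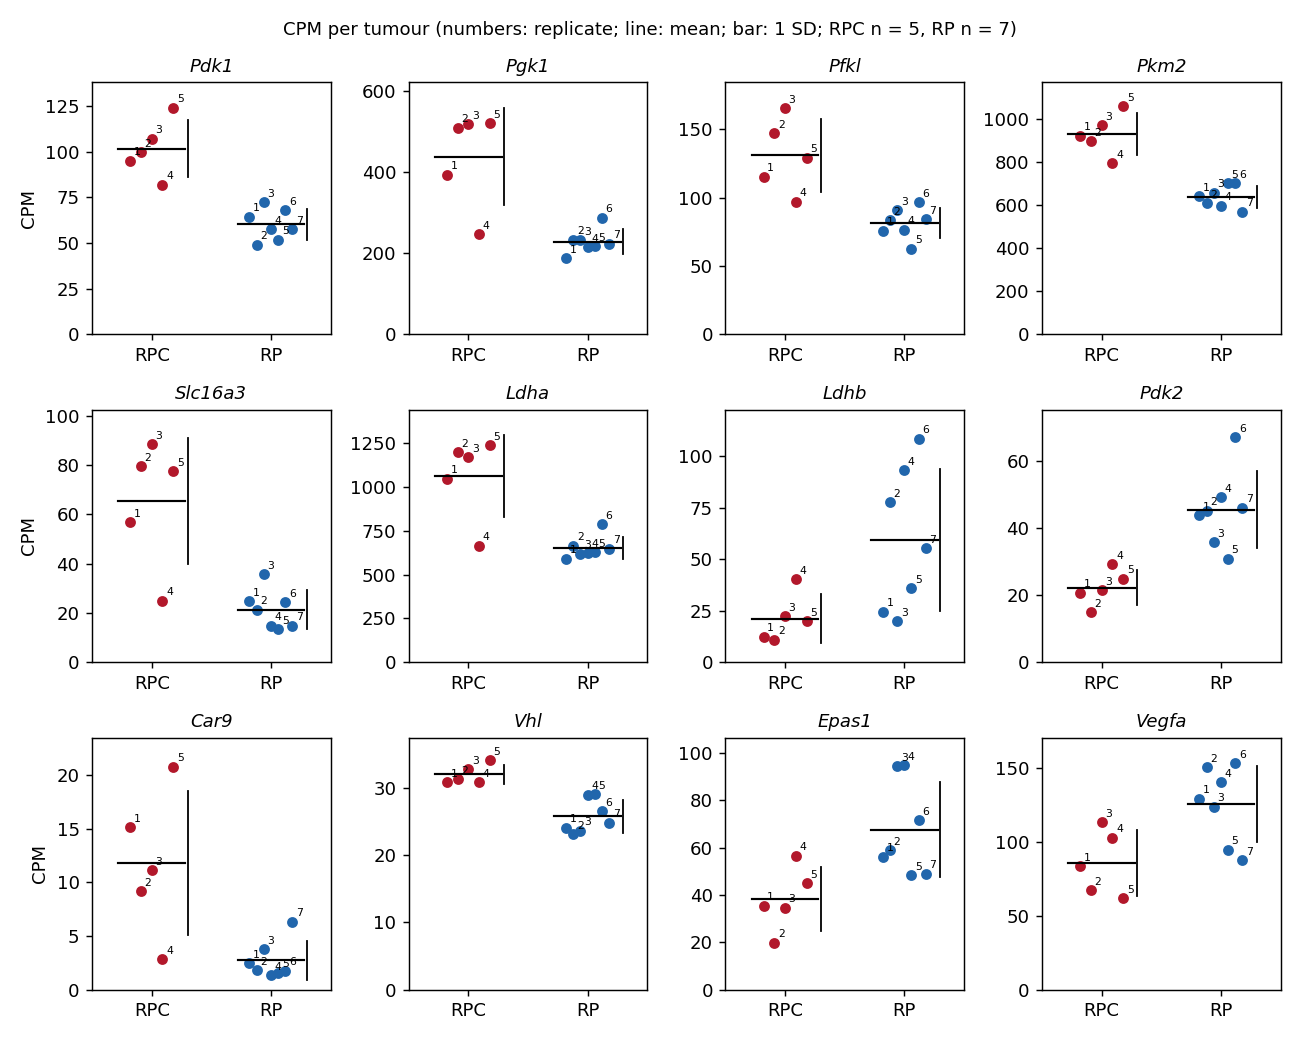
CPM per tumour of 12 genes (points, numbered by tumour; line, mean; bar, 1 SD), 5 RPC-labelled tumours on the left and 7 RP-labelled tumours on the right of each panel, each with its own axis from 0. Pdk1, Pfkl, Pkm2 and Vhl lie wholly higher and Pdk2 wholly lower in RPC-labelled tumours, and RPC-labelled tumour 4 lies among the RP-labelled values of Pgk1, Ldha, Slc16a3 and Car9.

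The pyruvate dehydrogenase kinases, which phosphorylate and switch off the pyruvate dehydrogenase complex, changed in opposite directions. Pdk1, the kinase known as a hypoxia target, had 95.2, 99.8, 107, 81.9 and 124 CPM in RPC-labelled tumours 1 to 5, against 49.0 to 72.6 CPM with a median of 57.8 CPM in RP-labelled tumours. Every RPC-labelled tumour was above every RP-labelled tumour (log2 fold change 0.76 ± 0.12 SE; edgeR adjusted p = 0.00421, the smallest of the 40 genes). Pdk2, the most widely expressed of these kinases, had 20.7, 14.8, 21.5, 29.2 and 24.8 CPM in RPC-labelled tumours 1 to 5, against 30.9 to 67.0 CPM with a median of 45.1 CPM in RP-labelled tumours. Every RPC-labelled tumour was below every RP-labelled tumour (log2 fold change -1.03 ± 0.20 SE; edgeR adjusted p = 0.00822). Pdk3 did not pass the test, at 16.3 to 24.2 CPM in RPC-labelled tumours and 19.7 to 31.0 CPM in RP-labelled tumours (log2 fold change -0.21 ± 0.13 SE; edgeR adjusted p = 0.262). Per kilobase of exon, Pdk1 stood at 19.6 CPM, Pdk2 at 9.89 CPM and Pdk3 at 9.77 CPM in RPC-labelled tumours, whereas in RP-labelled tumours Pdk1 stood at 11.6 CPM, Pdk2 at 20.2 CPM and Pdk3 at 11.3 CPM. Of these 3 kinase messages, that of Pdk1 was the most abundant in RPC-labelled tumours and that of Pdk2 in RP-labelled tumours. Pdk4, the kinase not among the 40 genes, had 7.33 to 62.0 CPM in RPC-labelled tumours and 7.80 to 259 CPM in RP-labelled tumours, and its level per kilobase was not computed.

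The enzymes that set the level of fructose 2,6-bisphosphate, the activator of phosphofructokinase, were not called. Pfkfb3, the member known for its high kinase activity, averaged 46.6 ± 7.33 CPM in RPC-labelled tumours (SD, n = 5) and 46.6 ± 18.4 CPM in RP-labelled tumours (SD, n = 7), where the RP-labelled values spread between 18.5 CPM in tumour 5 and 74.5 CPM in tumour 6. Pfkfb2, the heart type enzyme, averaged 62.8 ± 5.64 CPM in RPC-labelled tumours and 63.3 ± 9.17 CPM in RP-labelled tumours. Pfkfb4, a hypoxia target in cell lines, leaned lower, with 24.0 to 36.8 CPM in RPC-labelled tumours and 31.1 to 59.6 CPM in RP-labelled tumours (log2 fold change -0.44 ± 0.16 SE; edgeR adjusted p = 0.0669; -0.50 with an adjusted p of 0.0492 without RP-labelled tumour 7). No other single omission called Pfkfb4 (edgeR adjusted p up to 0.125).

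Of the 5 genes of oxygen sensing, Vhl rose and Epas1 fell. Vhl, the subunit of the ubiquitin ligase that recognises hydroxylated factor subunits, had 30.9, 31.3, 32.8, 30.9 and 34.2 CPM in RPC-labelled tumours 1 to 5, against 23.1 to 29.1 CPM with a median of 24.9 CPM in RP-labelled tumours. The groups did not overlap although the change was small (log2 fold change 0.31 ± 0.09 SE; edgeR adjusted p = 0.0289), and the call was lost without any one of RPC-labelled tumours 1, 2, 3 and 5 or RP-labelled tumours 2, 6 and 7, with adjusted p up to 0.0731. Epas1, which encodes HIF-2 alpha and is strongly expressed in endothelium, had 35.5, 19.8, 34.6, 56.7 and 44.9 CPM in RPC-labelled tumours 1 to 5, against 48.3 to 95.0 CPM with a median of 58.9 CPM in RP-labelled tumours. Tumour 4 alone of the RPC-labelled tumours reached into the RP-labelled range (log2 fold change -0.82 ± 0.26 SE; edgeR adjusted p = 0.0427). This call was lost without any one of RPC-labelled tumours 1, 2, 3 and 5 or RP-labelled tumours 2, 3, 4 and 6, with adjusted p up to 0.0913, and with the dividing cell score in the fit the log2 fold change was 0.02. Endothelial markers summed to 69.4 to 197 CPM in RPC-labelled tumours and 105 to 208 CPM in RP-labelled tumours, with 2 of 10 called lower; their part in the value of Epas1 was not tested.

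Hif1a, which encodes HIF-1 alpha and is controlled mainly through the stability of its protein, had 99.1 to 123 CPM in RPC-labelled tumours and 67.3 to 138 CPM in RP-labelled tumours (log2 fold change 0.25 ± 0.15 SE; edgeR adjusted p = 0.270). The highest of all was RP-labelled tumour 5, and leaving it out gave a log2 fold change of 0.36 with an adjusted p of 0.0464. Leaving out any other single tumour did not call Hif1a, with edgeR adjusted p up to 0.51. Egln1, the main prolyl hydroxylase, ranged from 91.7 to 135 CPM in RPC-labelled tumours and from 90.2 to 111 CPM in RP-labelled tumours (log2 fold change 0.28 ± 0.10 SE; edgeR adjusted p = 0.0658; 0.35 with an adjusted p of 0.0165 without RPC-labelled tumour 4). Omitting any other single tumour gave no call of Egln1 (edgeR adjusted p up to 0.184). Egln3, the hydroxylase that is itself strongly induced by hypoxia, had 24.0, 29.5, 43.8, 18.7 and 25.8 CPM in RPC-labelled tumours 1 to 5, against 5.14 to 24.4 CPM with a median of 19.9 CPM in RP-labelled tumours (log2 fold change 0.79 ± 0.35 SE; edgeR adjusted p = 0.127). RP-labelled tumours 5 and 7 were far below the rest of their group in Egln3, at 7.11 and 5.14 CPM.

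Among the 8 other hypoxia targets, Car9, Bnip3l and Ndrg1 rose and none fell. Car9, the cell surface carbonic anhydrase used as a marker of hypoxic tumour tissue, had 15.1, 9.16, 11.1, 2.84 and 20.8 CPM in RPC-labelled tumours 1 to 5, against 1.33 to 6.34 CPM with a median of 1.81 CPM in RP-labelled tumours. The RPC-labelled tumours other than tumour 4 stood above every RP-labelled tumour, of which tumour 7 was the highest (log2 fold change 2.13 ± 0.47 SE; edgeR adjusted p = 0.0144). Bnip3l, a receptor that removes mitochondria by autophagy, had 111, 176, 149, 107 and 167 CPM in RPC-labelled tumours 1 to 5, against 83.1 to 116 CPM with a median of 105 CPM in RP-labelled tumours (log2 fold change 0.45 ± 0.14 SE; edgeR adjusted p = 0.0398). RPC-labelled tumours 1 and 4 lay within the RP-labelled range, and the call was lost without any one of RPC-labelled tumours 2, 3 and 5 or RP-labelled tumours 1, 2, 4, 6 and 7, with adjusted p up to 0.131. Ndrg1, a stress-responsive gene induced by hypoxia, had 124, 92.9, 99.1, 66.7 and 118 CPM in RPC-labelled tumours 1 to 5, against 64.3 to 88.5 CPM with a median of 74.8 CPM in RP-labelled tumours (log2 fold change 0.44 ± 0.14 SE; edgeR adjusted p = 0.0484). Its call was kept in only 2 of the 12 fits that leave out 1 tumour, those without RPC-labelled tumour 4 and without RP-labelled tumour 3, and adjusted p otherwise reached up to 0.129.

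The remaining hypoxia targets were not called. Vegfa, the main angiogenic factor induced by hypoxia, leaned the other way, with 83.8, 67.5, 114, 103 and 61.9 CPM in RPC-labelled tumours 1 to 5, against 87.6 to 154 CPM with a median of 129 CPM in RP-labelled tumours. RPC-labelled tumours 1, 2 and 5 stood below every RP-labelled tumour (log2 fold change -0.55 ± 0.19 SE; edgeR adjusted p = 0.0565), and the adjusted p was 0.0381 to 0.0471 when RPC-labelled tumour 3 or 4, or RP-labelled tumour 5 or 7, was left out. With another tumour left out Vegfa was not called, with edgeR adjusted p up to 0.138. Bnip3, a mitochondrial relative of Bnip3l, ranged from 95.0 to 191 CPM in RPC-labelled tumours and from 73.8 to 143 CPM in RP-labelled tumours (log2 fold change 0.51 ± 0.20 SE; edgeR adjusted p = 0.0893; 0.65 with an adjusted p of 0.0278 without RPC-labelled tumour 4). Bnip3 was called in no other fit with 1 tumour left out (edgeR adjusted p up to 0.233). Ddit4, an inhibitor of mTORC1 induced by stress, had a log2 fold change of 0.17 ± 0.23 SE, and the collagen prolyl hydroxylase subunits P4ha1 and P4ha2 had 0.24 ± 0.17 SE and 0.09 ± 0.20 SE, with edgeR adjusted p of 0.639, 0.348 and 0.776. RP-labelled tumour 5 was the lowest of all 12 tumours in these 3 genes.

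Ratios of related genes within a tumour do not depend on the scaling between libraries. For 17 pairs of genes of the same step or family, the log2 ratio was compared between groups with an exact two-sided permutation test over all 792 splits of the tumours, adjusted over the 17 pairs, and 7 pairs were called. The ratio of Pdk1 to Pdk2 was 4.59, 6.68, 4.96, 2.80 and 4.98 in RPC-labelled tumours 1 to 5, against 1.02 to 2.02 in RP-labelled tumours. The groups did not overlap, with a log2 difference of 1.78 (exact p = 0.00126, the smallest that 792 splits can give; adjusted p = 0.0215). Since Pdk1 was wholly higher and Pdk2 wholly lower in RPC-labelled tumours, this separation and its exact p were fixed beforehand. They add no evidence to that of the 2 genes. The ratio of Ldha to Ldhb was 85.1, 109.9, 52.6, 16.5 and 62.0 in RPC-labelled tumours 1 to 5, against 6.70 to 31.0 in RP-labelled tumours, a log2 difference of 2.08 (exact permutation, adjusted p = 0.0343). RPC-labelled tumour 4 was the one inside the RP-labelled range.

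The other called ratios were smaller. The log2 difference, RPC-labelled minus RP-labelled, was 1.13 for Hif1a to Epas1, 0.81 for Pdk3 to Pdk2 and 0.73 for Aldoc to Aldoa, each with an exact permutation adjusted p of 0.0343. It was -0.77 for Eno2 to Eno1 and -0.42 for Pfkfb4 to Pfkfb2, each with an exact permutation adjusted p of 0.0491. Slc16a3 to Slc16a1 had a log2 difference of 1.38, with RP-labelled tumour 3 at 8.40 among the RPC-labelled values of 2.49 to 9.65, and was not called (exact permutation, adjusted p = 0.0751). The ratios among phosphofructokinase subunits, of Bnip3 to Bnip3l, of P4ha2 to P4ha1, of Slc2a3 to Slc2a1, of Hk2 to Hk1, of Egln3 to Egln1 and of Pfkfb3 to Pfkfb2 were not called either. Without RPC-labelled tumour 1, 2 or 5 no ratio was called. Fewer tumours give fewer splits, so the smallest p that the test can reach is then larger. The ratio of Pdk1 to Pdk2 was at that smallest p, with log2 differences of 1.65 to 1.78 in the same direction (exact permutation, adjusted p = 0.0515). The loss of its call therefore does not show that it depends on any of these tumours.

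**Figure D4:**
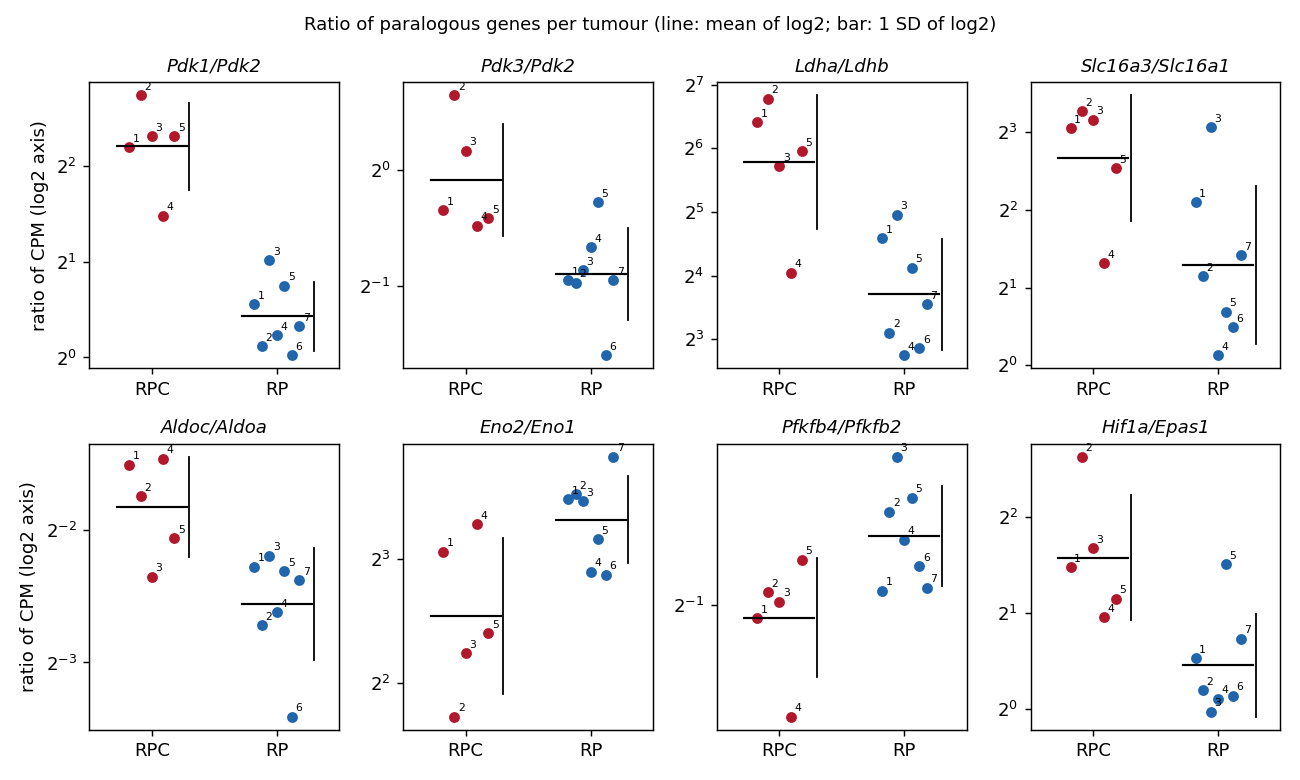
Ratio of CPM of 2 related genes in each tumour, on a log2 axis (points, numbered by tumour; line, mean of log2; bar, 1 SD of log2), RPC-labelled tumours left of RP-labelled tumours. The ratio of Pdk1 to Pdk2 lies between 2.80 and 6.68 in RPC-labelled tumours and between 1.02 and 2.02 in RP-labelled tumours, while the other 7 pairs overlap.

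Genes of neighbouring lists gave the setting of the 40. Of 30 further hypoxia targets, 6 (20%) were called higher and none lower, against 9.64% and 8.61% of all tested genes. Their median log2 fold change was 0.25, with 19 genes above 0 and 11 below. Ak4, a mitochondrial adenylate kinase, was higher by 2.49 ± 0.38 SE on the log2 scale, at 45.3 ± 26.8 CPM in RPC-labelled tumours and 8.11 ± 2.73 CPM in RP-labelled tumours (edgeR adjusted p = 0.00331). The ubiquitin ligase component Wsb1 was higher by 1.16 (edgeR adjusted p = 0.00822), the carbonic anhydrase Car12 by 1.31 (0.0245) and the transferrin receptor Tfrc by 0.67 (0.0302). Of 8 further genes of oxygen sensing, 2 (25%) were called higher and none lower, with 5 log2 fold changes above 0 and 3 below. Arnt2, a dimer partner of the factor subunits found in neural cells, stood in every RPC-labelled tumour above every RP-labelled tumour, at 14.0 to 26.7 CPM in RPC-labelled tumours and 3.90 to 12.1 CPM in RP-labelled tumours (log2 fold change 1.40 ± 0.27 SE; edgeR adjusted p = 0.00863). Egln2, a prolyl hydroxylase, was at 121 ± 19.0 CPM in RPC-labelled tumours and 76.5 ± 12.6 CPM in RP-labelled tumours (log2 fold change 0.67 ± 0.13 SE; edgeR adjusted p = 0.00901).

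In 4 lists of minor isoenzymes and of branches that lead away from glycolysis no gene was called higher, against 9.64% of all tested genes. These lists held 10, 8, 6 and 9 tested genes, of which 4 in all were called lower, against 8.61% of all tested genes. So small a number is not read as a result about the lists. Of 10 tested genes of a list of 14 tissue-restricted or minor glycolytic isoenzymes, none was called; the smallest p was that of Adpgk, the ADP-dependent glucokinase (log2 fold change 0.26 ± 0.11 SE; edgeR adjusted p = 0.0958). Of 8 genes of the pentose phosphate pathway, 2 fell: transketolase, Tkt (log2 fold change -0.52 ± 0.14 SE; edgeR adjusted p = 0.0284), and phosphogluconate dehydrogenase, Pgd (-0.41 ± 0.12 SE; edgeR adjusted p = 0.0385). Of 6 tested genes of gluconeogenesis, 1 fell, Pck1, phosphoenolpyruvate carboxykinase, a gene also high in adipocytes, at 2.27 to 6.01 CPM in RPC-labelled tumours and 2.60 to 148 CPM in RP-labelled tumours (log2 fold change -3.81 ± 0.99 SE; edgeR adjusted p = 0.0233). Of 9 genes of pyruvate entry into mitochondria, 1 fell, Brp44, the older symbol of the pyruvate carrier subunit Mpc2 (log2 fold change -0.87 ± 0.28 SE; edgeR adjusted p = 0.0458). RP-labelled tumours 2, 4, 6 and 7, with the highest adipocyte marker sums, were also the 4 highest of all 12 tumours in Pck1, Brp44 and Tkt, and the part of adipocytes in these values was not tested.

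Markers of dividing cells rose in RPC-labelled tumours and, as given above, those of adipocytes fell, while the other marker lists held 2 called genes at most. Of 10 dividing cell markers 9 rose, and they summed to 874 to 2614 CPM in RPC-labelled tumours and 568 to 1296 CPM in RP-labelled tumours. RP-labelled tumour 5 had the highest of the RP-labelled sums, 1296 CPM, above RPC-labelled tumour 4, and had 218 CPM of Pgk1 and 629 CPM of Ldha, against 247 CPM of Pgk1 and 666 CPM of Ldha in RPC-labelled tumour 4. RPC-labelled tumour 2, with the highest sum of all, 2614 CPM, had 509.7 CPM of Pgk1 and 1199 CPM of Ldha. Of the 14 higher genes, RP-labelled tumour 5 was the highest of its group in 3 and the lowest in 5. Follicular cell markers, of which 2 of 11 tested fell, were low in RP-labelled tumour 3 at 2038 CPM, and that tumour had 233 CPM of Pgk1 and 619.5 CPM of Ldha, within the range of the other RP-labelled tumours. Over the 14 higher genes, however, RP-labelled tumour 3 was the highest of its group in 5 and lay inside the RPC-labelled range in 6. The part of dividing or of follicular cells in these values was not tested. Macrophage markers summed to 259 to 665 CPM in RPC-labelled tumours and 321 to 1521 CPM in RP-labelled tumours with none called, and fibroblast markers to 515 to 1952 CPM in RPC-labelled tumours and 620.1 to 3483 CPM in RP-labelled tumours with 1 called lower. The macrophage sums count Emr1 under both its older and its current symbol, Adgre1, and its highest value was 33.7 CPM in RP-labelled tumour 3. Red blood cell markers summed to 11.4 to 21.4 CPM in RPC-labelled tumours and 4.63 to 39.1 CPM in RP-labelled tumours with none called, and Hba-a1 and Hba-a2 were at 0 in all 12 tumours.

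**Figure D5:**
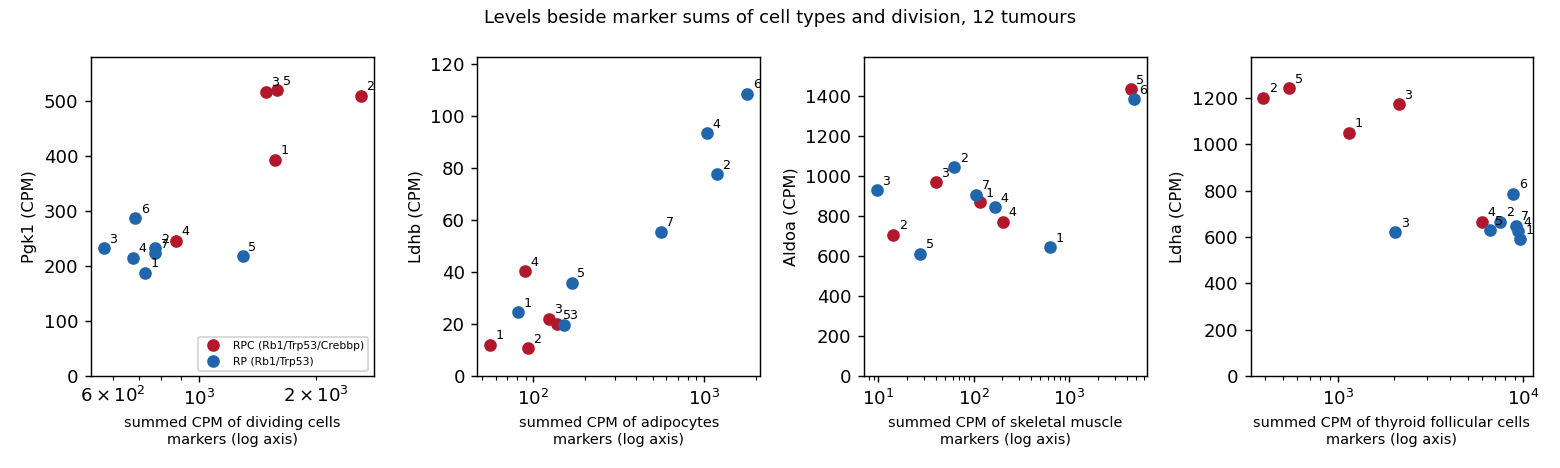
Levels (CPM) of Pgk1, Ldhb, Aldoa and Ldha in the 12 tumours against the summed CPM of markers of dividing cells, adipocytes, skeletal muscle and thyroid follicular cells (horizontal axes, log scale; vertical axes linear, from 0); red, RPC-labelled; blue, RP-labelled; numbers, tumours. Ldhb is highest in the 4 RP-labelled tumours with adipocyte sums of 555 CPM or more, and Aldoa in the 2 tumours with muscle sums of 4402 and 4750 CPM.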

How the data were processed

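Per the labels' protocols, TRIzol was used for RNA isolation, oligo(dT) beads for the selection of mRNA and a NEBNext Ultra kit for the libraries. Per the submitters' processing notes, reads were processed on build mm9 with bcl2fastq 1.8.2, TopHat2 2.0.12 and HTSeq 0.6.1. The sources used here give neither the annotation, nor the read length, nor the strand setting, and without strand the reads of a gene and of a gene that overlaps it or lies antisense to it are not separable. The authors deposited raw counts per gene, with 23284 genes and 5 summary rows per tumour; the summary rows, with a share of 13.1% to 17.6% for reads outside genes and of 10.9% to 18.5% for reads with more than 1 alignment, stayed out of library sizes and tests.

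Counts were analysed with R 4.3.3 and edgeR 4.0.16. The filter filterByExpr with a minimum count of 10 left 14989 genes. TMM scaling was used, and the 12 tumours were compared by genotype with the robust quasi-likelihood test without covariates, Benjamini-Hochberg adjustment over all tested genes and a threshold of 0.05. The standard error is the size of the log2 fold change divided by the square root of F. Ratios used CPM with 0.1 added and numpy 2.4.6. Levels per kilobase and shared 50-base stretches used exons of a GENCODE annotation of GRCm38, not the annotation that was counted. Floors cover counting error only. Any 2 libraries of the same group differed by more than counting error.

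The 40 genes, the neighbouring lists and the marker lists were chosen with earlier results of these data known. The genes named are all 40, Crebbp, Rb1 and Trp53, and up to 4 called genes of each neighbouring list with the smallest p, or, where none was called, the 1 with the smallest p. Gm5506, Pdk4, Eno3, Emr1 and the markers at 0 lie outside this rule. On simulated counts with 200 of 14989 genes changed, 55% of the 2-fold and 87% of the 4-fold changes were found between RPC and RP, and 5 of 147 calls were false. The alternatives were DESeq2 1.42.0, limma 3.58.1 with voom, leaving out tumours, adding the tumour number as a block or 1 of 3 marker scores, testing against a 1.5-fold change, and other filters and scalings.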

Additional observations from a re-analysis of the deposited data

Results flagged for a closer look

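In each gene and group, the tumour farthest out was compared with the range of its group by Dixon's criterion at 95%, which chance alone meets in about 1 of 20 groups. Over the 80 groups of the 40 genes, 6 values met it. In RPC-labelled tumours, Ldha was lowest in tumour 4 at 666 CPM, while the other 4 tumours had 1049 to 1239.8 CPM. The other 5 lay in RP-labelled tumours. Ldha was highest in RP-labelled tumour 6 at 787.2 CPM, Egln1 in the same tumour at 110.9 CPM and Pfkp in tumour 3 at 122.7 CPM. Bnip3l was lowest in RP-labelled tumour 1 at 83.1 CPM and P4ha2 in tumour 5 at 44.49 CPM. The cause of these values was not tested.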

How the results depend on the processing

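The 14 calls of higher genes among the 40 were all kept under DESeq2, voom with sample weights, library totals alone and a filter of 1 CPM in 5 tumours, and 13 of them with RLE scaling or with no filter. Counts of lower genes were 5 under DESeq2 and 5 under voom, against 3. Of all tested genes, 1445 were called higher and 1291 lower; DESeq2 called 2001 lower, voom 3290 higher and 3062 lower, and library totals alone 2691 higher and 757 lower, a scaling under which the median log2 fold change of all genes was 0.18 and that of the 40 genes 0.51. Against a 1.5-fold change, 0 of the 40 were called in either direction, and 107 of all genes higher and 46 lower. With 1 marker score in the fit, the calls among the 40 were 0 higher and 0 lower for follicular cells, 0 and 0 for dividing cells, and 1 and 0 for adipocytes; of all genes they were 2 higher and 1 lower, 16 and 4, and 32 and 34, in that order, and 1357, 1636 and 2800 genes had an unadjusted p under 0.05. The median log2 fold change of the 40 genes, 0.31, was 0.21, 0.38 and 0.52 in these fits. Since the scores differed with genotype, these fits cannot separate the 2. Without RPC-labelled tumour 5 and RP-labelled tumour 6 together, 7 of the 40 were higher and 1 lower, and of all genes 396 and 360. Leaving out each tumour gave 9 to 17 of the 40 higher and 1 to 4 lower, 557 to 1800 of all genes higher and 517 to 1710 lower, and 0 to 6 called ratios. For the ratios, the smallest p that the permutation can reach is larger with a tumour left out.

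The tumour numbers were not taken as pairs: same-numbered tumours had correlations of -0.10 to 0.05 in their deviations from the group means, and 1 of 5 RPC-labelled tumours correlated best with its own number. With the number as a replicate block over tumours 1 to 5, 6 of the 40 genes were called higher and 0 lower, and 244 and 219 of all genes, while the same tumours without the block gave 10 higher and 1 lower, and 480 and 388 of all genes. In the ratios, the block gave 0 calls, since 5 pairs cannot give a p below 0.0625, and Pfkp to Pfkm then had a log2 difference of -0.15.

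Reversals of sign touched genes that were not called, except Ldhb and Epas1, which were at 0.0755 with the follicular score and 0.0212 with the dividing cell score. The follicular score also gave log2 fold changes of -0.75 for Slc2a3, -0.0633 for Hk1, -0.17 for Pfkp, -0.0035 for Aldoa and -0.12 for Pfkfb3, the dividing cell score 0.93 for Hk2, 0.34 for Eno2, 0.21 for Pfkfb2 and -0.059 for Hif1a, and the adipocyte score 0.54 for Hk2. DESeq2 gave -0.0059 and RLE scaling -0.0047 for Pfkfb3, voom -0.0935 for Aldoa, 0.15 for Eno2, -0.13 for Slc16a1 and 0.0466 for Pfkfb2, and library totals 0.17 for both Eno2 and Pfkfb2. Leaving out each tumour, the log2 fold change spanned 0 for Eno2 (-0.0806 to 0.11), Pfkfb2 (-0.0612 to 0.0587), Pfkfb3 (-0.16 to 0.16), P4ha2 (-0.11 to 0.16), Aldoa (-0.14 to 0.20), Slc16a1 (-0.0858 to 0.30) and Hk2 (-1.08 to 0.0691), and the log2 ratio difference for Slc2a3 to Slc2a1 (-0.13 to 0.21), Pfkp to Pfkm (-0.086 to 0.28) and Pfkfb3 to Pfkfb2 (-0.0755 to 0.24). The causes were not tested.

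The shallowest library held 9.11 M gene counts, and Car9 and Slc2a3 rest on the fewest counts of the 40, 1229 and 1520 over all tumours. The largest standard error of the 40 was that of Hk2, 0.54 on the log2 scale.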

Other observations

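Trp53, whose gene is named in both genotypes, was lower in RPC-labelled tumours, at 11.8 to 22.8 CPM, than in RP-labelled tumours, at 23.2 to 35.8 CPM (log2 fold change -0.84 ± 0.17 SE; edgeR adjusted p = 0.00918), and the groups did not overlap. Rb1 was not called, at 74.2 to 131 CPM in RPC-labelled tumours and 49.0 to 99.97 CPM in RP-labelled tumours (log2 fold change 0.37 ± 0.17 SE; edgeR adjusted p = 0.137). Counts over whole genes do not show which exons remain.

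Hk1 was among the 40 genes the one with the least spread over RPC-labelled tumours, with a coefficient of variation of 3.39% in RPC-labelled tumours and 28.2% in RP-labelled tumours, followed by Vhl with 4.5% in RPC-labelled tumours and 9.67% in RP-labelled tumours. Hk2 had the widest spread in both groups, 86.6% in RPC-labelled tumours and 74.5% in RP-labelled tumours. Pdk4, the kinase of fasting and of muscle, reached 62.0 CPM in RPC-labelled tumour 5, against 259 CPM in RP-labelled tumour 6, 69.1 CPM in RP-labelled tumour 4 and 36.4 and 37.7 CPM in RP-labelled tumours 2 and 7. Of these, RPC-labelled tumour 5 and RP-labelled tumour 6 had the highest sums of muscle markers, and RP-labelled tumours 2, 4, 6 and 7 the highest sums of adipocyte markers. Eno3, the muscle enolase, reached 160.2 CPM in RPC-labelled tumour 5 and 211 CPM in RP-labelled tumour 6.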
